A study of Homo sapiens with 16 samples.

Results

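TWEAK treatment of Hs578T cells was followed by H3K27ac peaks at 1065 regions that had no peak in untreated control cells of either line studied and were not gained by the other line, MDA-MB-231. They were taken from 55219 consensus regions, obtained by joining all peaks that shared at least 1 bp and keeping those found in 2 or more of 16 peak lists. A member had a peak in both TWEAK lists of Hs578T control cells and in neither untreated list, no peak in either untreated list of MDA-MB-231 control cells, and no peak in at least 1 of the 2 lists of TWEAK-treated control MDA-MB-231. The members were 1.93% of the consensus regions and 37.9% of the 2812 regions gained in Hs578T control cells. Of the rest of those 2812, 1367 were gained in both lines and 380 already had a peak in untreated MDA-MB-231 control cells.

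Both lines are cultured human breast cancer cells of the triple-negative kind, which lack oestrogen receptor, progesterone receptor and HER2 amplification. The 8 groups were control and Fn14 KO cells of each line, each untreated or given TWEAK, with 2 lists per group. All cells were starved of serum for 8 h, and the treated cells then received TWEAK at 10 ng/ml for 48 h, renewed after 24 h. The KO cells were made with an inducible CRISPR vector carrying either of 2 guides against Fn14 and were picked by western blot and checked by Sanger sequencing, and the peak lists cannot show whether the receptor was lost. Hs578T control cells untreated and with TWEAK are the arms that chose the members, so their values are given as a description. The Fn14 KO lists of both lines were not used by that choice, whereas the MDA-MB-231 control lists were. The lists held 39544 to 47197 peaks with a median fold enrichment of 5.0 to 5.89, and sequencing depth, which they do not give, is unknown here.

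TWEAK, the product of TNFSF12, is a ligand of the TNF superfamily, and Fn14, the product of TNFRSF12A, is its receptor. Fn14 binds TRAF adaptor proteins and leads to NF-kB activation, including the non-canonical route, and to MAP kinase signalling that feeds AP-1 factors. H3K27ac is acetylation of lysine 27 on histone H3, a mark of active promoters and enhancers. Enhancers are regulatory stretches, often far from any gene start, whose use differs between cell types even where the same signal arrives.

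The sequences below show the motif letters whose share was lower in the members (11.3%) than in the regions gained in both lines (20.7%). The 3 stretches of 61 bases are from hg38 and lie in members near genes of the fixed gene lists, each centred on the NF-kB match nearest the centre of its member. Of 34 members near named list genes, these 3 are all that held a match in the central 500 bp. They were picked after those matches were seen. Capitals mark matches to GGGANNTTC, or its reverse complement, the only letters searched here for NF-kB.
TNFSF9/CD70, chr19:6556649-6556709, plus strand: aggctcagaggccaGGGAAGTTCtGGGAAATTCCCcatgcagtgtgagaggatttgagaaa
TNFRSF9, chr1:7897301-7897361, plus strand: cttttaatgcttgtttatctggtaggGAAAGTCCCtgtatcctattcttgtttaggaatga
BMPR1B, chr4:95140473-95140533, plus strand: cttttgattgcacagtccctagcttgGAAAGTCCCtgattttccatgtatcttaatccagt
The member between TNFSF9 and CD70, genes of TNF family ligands that costimulate T cells, had 3 such matches in its central 500 bp. Matches that overlap run together there. The member near TNFRSF9, the receptor of TNFSF9, also had 3, and the intronic member of BMPR1B, a BMP receptor, had 1.

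The next 4 sequences are the central 200 bases (hg38) of members among the 10 with the highest fold enrichment, and capitals mark any match to 1 of 9 short motifs given later.
MELTF, chr3:197028424-197028623, plus strand: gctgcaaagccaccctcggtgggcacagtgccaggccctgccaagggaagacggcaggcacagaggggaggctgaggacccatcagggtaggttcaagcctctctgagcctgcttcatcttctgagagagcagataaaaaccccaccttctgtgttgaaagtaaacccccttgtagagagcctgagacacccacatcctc
FA2H, chr16:74760684-74760883, plus strand: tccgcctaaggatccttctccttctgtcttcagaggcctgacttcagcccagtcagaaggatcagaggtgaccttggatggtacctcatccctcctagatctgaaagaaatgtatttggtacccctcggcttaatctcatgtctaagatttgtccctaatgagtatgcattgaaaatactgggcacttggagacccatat
KDM7A, chr7:140212385-140212584, plus strand: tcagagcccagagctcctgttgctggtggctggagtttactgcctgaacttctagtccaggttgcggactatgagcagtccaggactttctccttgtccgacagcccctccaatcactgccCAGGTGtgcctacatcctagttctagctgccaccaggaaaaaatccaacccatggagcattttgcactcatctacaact
SLX4IP, chr20:10476387-10476586, plus strand: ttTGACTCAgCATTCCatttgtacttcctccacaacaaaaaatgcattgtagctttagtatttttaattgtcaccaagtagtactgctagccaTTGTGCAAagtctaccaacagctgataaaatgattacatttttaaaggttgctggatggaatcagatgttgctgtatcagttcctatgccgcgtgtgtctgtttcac
The member in an intron of SLX4IP held matches for AP-1, TEAD and C/EBP, and the one near KDM7A held an E-box match. The windows of MELTF and FA2H held none.

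Peak height is given as fold enrichment, the ChIP signal of a peak over its background as the peak caller wrote it. The members were low peaks. Their median fold enrichment was 3.17 in TWEAK list 1 and 3.16 in TWEAK list 2, against 3.86 and 3.85 in the same lists for the regions gained in both lines. The median −log10 q-value of the members was 2.33 and 2.36, where the lists start at about 1, and 4.09 and 4.12 for the regions gained in both lines. In 477 members (44.8%) the −log10 q-value reached 2 in both lists, compared with 80.9% of the regions gained in both lines. The median width of a member was 774 bp, from 216 bp to 4152 bp, compared with 1121 bp for the regions gained in both lines and 1702 bp for all consensus regions. Summed, the members covered 0.863 Mb.

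The 2 TWEAK lists ranked the members only loosely. Pearson's correlation of log2 fold enrichment between them was 0.48 over the 1065 members, given as a description since the points share both libraries. The higher list exceeded the lower by a median of 1.11 times. A member needed 2 peaks, and many regions missed by 1 list. A further 855 regions met every other criterion but had a peak in 1 of the TWEAK lists, with a median −log10 q-value there of 1.77. Another 554 had a peak in 1 of the untreated Hs578T lists, with a median −log10 q-value of 2.07. Of the members, 145 (13.6%) had a −log10 q-value under 1.3 in at least 1 of their 2 lists. Membership depended on the peak threshold. With peaks of −log10 q-value of at least 2 alone, 833 regions met the rule and 476 of these (57.1%) overlapped a member.

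**Figure D1:**
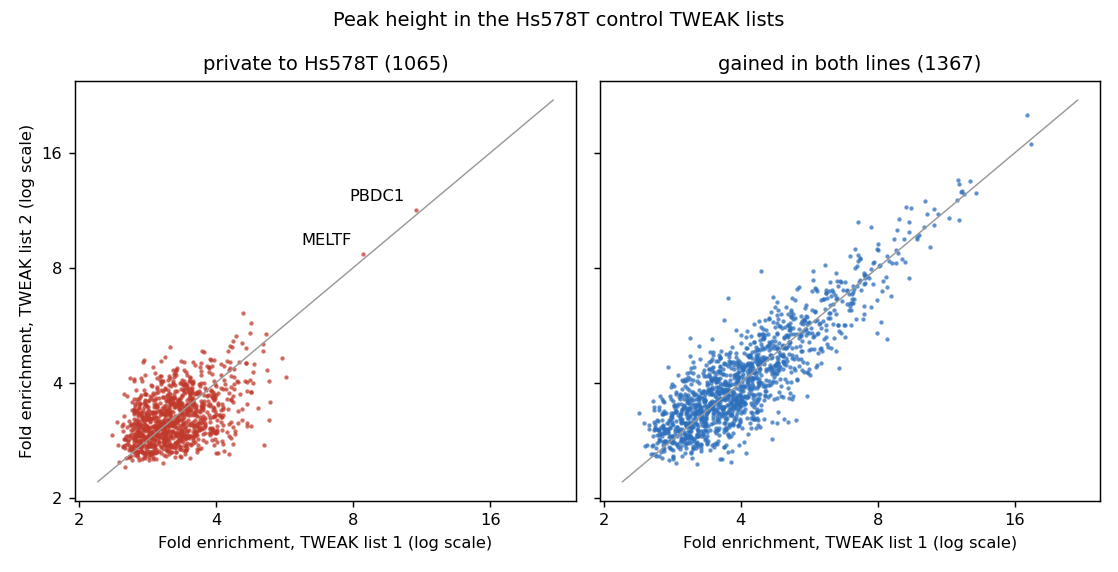
Fold enrichment in TWEAK list 1 (x axis) and TWEAK list 2 (y axis) of Hs578T control cells, both on log scales, with 1 point per region and a line of equality. The members (left) cluster around 3.17 with PBDC1 and MELTF far above the rest, and the regions gained in both lines (right) have a median of 3.86 in list 1 and extend above 16.

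The strongest member lay 13.4 kb from the start of PBDC1, a little-studied gene. Its fold enrichment was 10.98 in TWEAK list 1 and 11.31 in TWEAK list 2. It also had a peak, at 7.42, in 1 of the 2 untreated Fn14 KO lists of Hs578T and in no other list. The second (chr3:197027108-197029940) overlapped the start of MELTF, which encodes melanotransferrin, an iron-binding surface protein. Its values were 8.39 and 8.70. It had no peak in the other 6 Hs578T lists or in the 4 MDA-MB-231 control lists, but peaks of 10.3 and 9.68 in the second untreated and the second TWEAK list of MDA-MB-231 Fn14 KO cells.

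The next 8 members were lower, with mean fold enrichment from 4.92 to 5.33. The third lay 87.7 kb from the nearest start of NRG1, the gene of the ERBB3 and ERBB4 ligand neuregulin 1, with values of 4.59 and 6.08 and no peak in any other list. KCNJ5, a potassium channel gene, had an intronic member at 5.14 and 5.38, again with no peak elsewhere. FA2H encodes fatty acid 2-hydroxylase, and its intronic member stood at 4.78 and 5.74, with a peak of 2.99 in the second MDA-MB-231 TWEAK list. The members near KDM7A, SLX4IP and NECTIN3 likewise had a peak in that list, at 3.65, 2.59 and 2.99. Those nearest AKR1E2 and ANKRD30A were 483 kb and 547 kb from a gene start and had no peak outside the Hs578T TWEAK lists. None of these 8 had a peak in any Fn14 KO list.

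**Figure D2:**
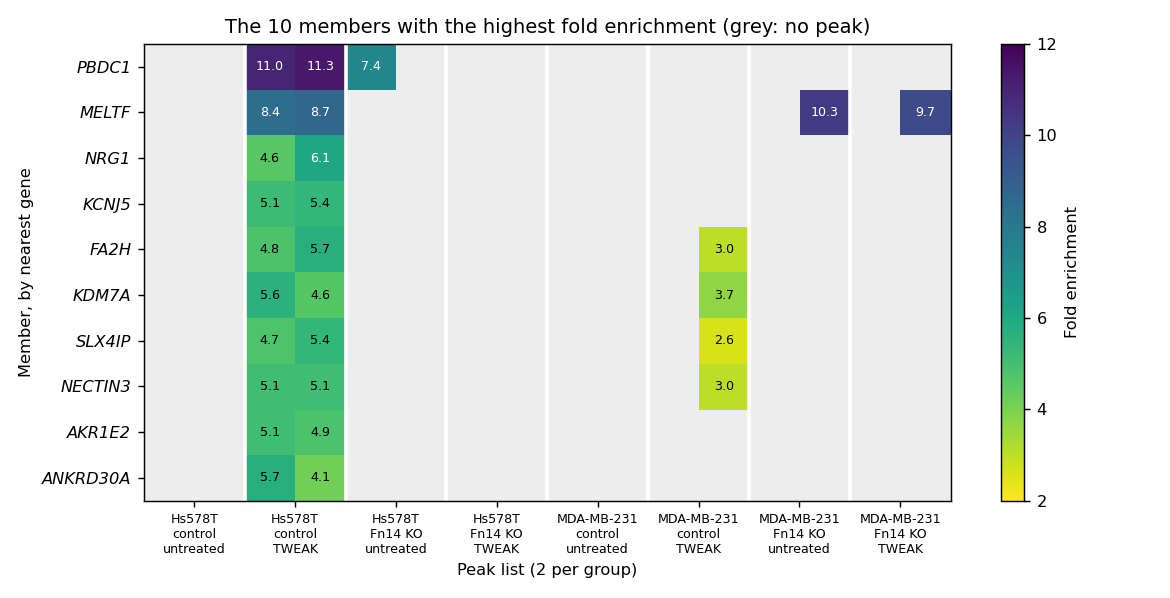
Fold enrichment (colour and printed value) of the 10 members with the highest mean in the Hs578T control TWEAK lists, by nearest gene (rows) in each of the 16 lists (columns, 2 per group), with grey for no peak. Only PBDC1 and MELTF have a peak in a Fn14 KO list, and FA2H, KDM7A, SLX4IP and NECTIN3 have one in the second MDA-MB-231 control TWEAK list.

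Most members had no peak in Fn14 KO cells of the same line. In untreated Hs578T Fn14 KO cells 103 members (9.67%) had a peak in list 1 and 107 (10.05%) in list 2, a mean of 9.86% ± 0.266 (SD, n = 2). With TWEAK the counts were 113 (10.6%) and 114 (10.7%), a mean of 10.7% ± 0.0664 (SD, n = 2). Both TWEAK values lay above both untreated values, whereas all 1065 members had been gained in control cells by choice. An exact two-sided permutation test of 2 lists against 2 cannot give a p below 0.333, so no such test is reported. Fn14 KO lists of Hs578T had a peak at about 77.4% (untreated) and 78.0% (TWEAK) of all consensus regions. For regions with no untreated control peak that were gained in neither line, the untreated lists gave 41.8% and 37.0% and the TWEAK lists 44.9% and 38.0%. Nothing is read from either difference. Members were chosen to have no untreated control peak, and those not gained had to reach 2 lists without a peak in both control TWEAK lists of either line.

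A call of gain needs a peak in both TWEAK lists and neither untreated list. In Hs578T Fn14 KO cells 11 members (1.03%) met it, beside 1.05% of all consensus regions. A call of loss was met by 6 members (0.563%), beside 0.829% of all. For comparison, 5.09% of consensus regions were gained in Hs578T control cells, the contrast that chose the members. Between control and KO cells given TWEAK, 893 members (83.8%) carried a peak in each of the control lists and in none of the KO lists. The share was 90.1% for the regions gained in both lines and 6.93% for all consensus regions, and since the control side of that call was fixed by the choice of members, nothing is read from the difference from all regions.

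Of the members, 822 (77.2%) had no peak in any of the 4 Hs578T Fn14 KO lists, 130 had 1, 58 had 2, 29 had 3 and 26 had all 4. Among the 243 with any such peak, 71 had one in untreated lists alone, 76 in TWEAK lists alone and 96 in both. The 26 with all 4 included the intronic member of TGFA, the gene of an EGFR ligand. Its fold enrichment was 3.28 and 3.28 in the control TWEAK lists, 3.01 and 4.0 in untreated KO cells and 3.10 and 3.70 in KO cells with TWEAK, so the groups overlapped. The member nearest SYK, a tyrosine kinase gene, was at 3.88 and 3.16 in control cells and between 2.56 and 3.31 in the KO lists. CA12, a carbonic anhydrase gene, had a member at 4.32 and 4.18, against 3.63, 3.20, 3.15 and 3.14 in the 4 KO lists, all lower. The 11 gained in KO cells included the one at the start of MX1, an interferon-induced antiviral GTPase gene, at 2.98 and 2.93 in control cells and 2.80 and 2.93 in KO cells. These examples were chosen after their values were seen.

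The members had KO peaks more often than the regions gained in both lines did. For the latter, 4.83% and 6.51% had a peak in the untreated and 6.29% and 6.36% in the TWEAK lists of Hs578T Fn14 KO cells. All 4 values for the members exceeded all 4 of these. The mean over the 4 lists was 10.3% for the members and 6.0% for the regions gained in both lines. The members were higher under each of 22 other settings, many of which chose nearly the same regions. Their mean was 15.4% without the first and 16.4% without the second untreated control list of Hs578T. It was 21.7% without the first and 18.4% without the second TWEAK control list of that line. Without the first or the second TWEAK control list, 1172 and 926 regions were chosen, and 614 and 608 of them overlapped the members. The order also held in 3 of 4 bands of peak height. Among members with mean fold enrichment over 3.51, the 4 lists gave 8.65%, 10.5%, 9.02% and 10.2%, against 4.36%, 6.26%, 6.48% and 6.48% for the regions gained in both lines above the same height. That band has no upper limit, and its median was 3.77 for the members and 4.38 for the regions gained in both lines. Below 2.95 the 2 sets overlapped, with 7.87% to 11.6% for the members and 7.56% to 13.4% for the regions gained in both lines. The lists of 1 genotype share a cell line, and whether KO derivation itself moved these peaks was not tested.

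**Figure D3:**
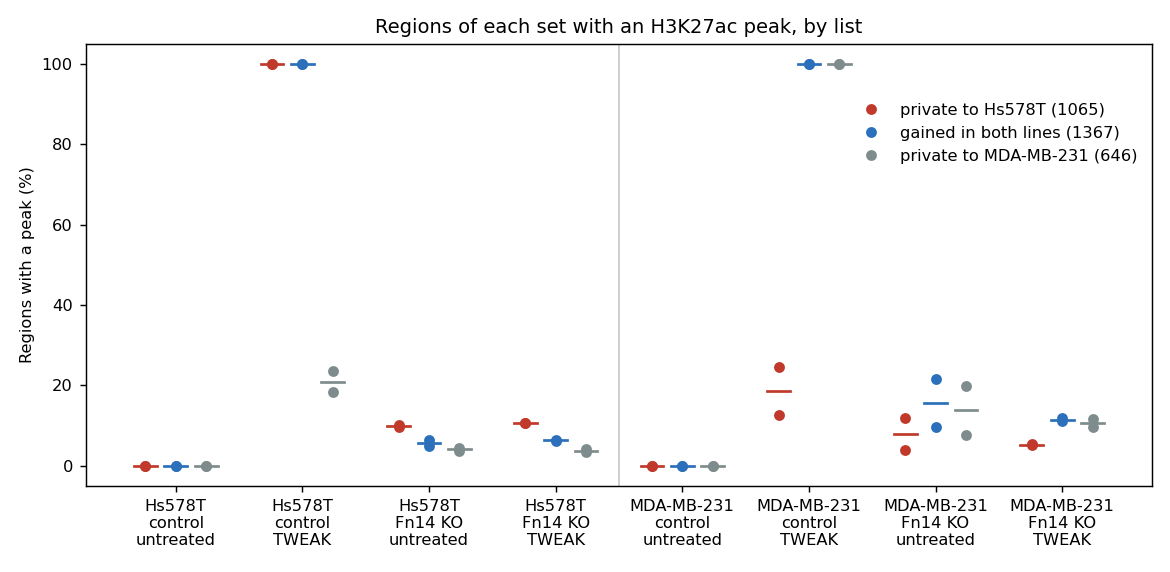
Share of regions with a peak (y axis, %) in each of the 16 lists, grouped by line, genotype and treatment, for the members, the regions gained in both lines and those private to MDA-MB-231, with 1 point per list and a bar at the mean of 2. In the Hs578T Fn14 KO lists the members lie between 9.67% and 10.7%, above both other sets. The set private to MDA-MB-231 was chosen to lack a peak in at least 1 of the 2 Hs578T control TWEAK lists. Its place below the members there is therefore given as a description. Values of 0 and 100 in control lists follow from how the sets were chosen.

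In MDA-MB-231 the order was the opposite. The regions gained in both lines and those private to MDA-MB-231 were chosen with a peak in both control TWEAK lists of this line. The members were chosen to lack a peak in at least 1 of them, so the order in its KO lists is given as a description. The members had a peak in 11.9% and 4.04% of cases in the untreated and 5.35% and 5.07% in the TWEAK lists of Fn14 KO cells. The regions gained in both lines gave 21.6% and 9.58%, then 11.0% and 12%, and those private to MDA-MB-231 gave 20.0% and 7.59%, then 11.6% and 9.75%. The first untreated list stood above the second in all 3 sets, and it held 46295 peaks against 39544. The treatment groups overlapped for the members. Their mean over the 4 lists was 6.60%, against 13.6% for the regions gained in both lines. It was lower in each of 22 other settings, all of which kept the use of MDA-MB-231 control lists in the choice. In MDA-MB-231 Fn14 KO cells 3 members (0.282%) were gained with TWEAK, beside 0.321% of all consensus regions, and 6 (0.563%) were lost, beside 1.35%. The 3 gained lay nearest UNC13C, DCBLD2 and FAT1.

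The members were not all silent in MDA-MB-231 control cells. The rule let a member have a peak in 1 of the 2 TWEAK lists of that line, and 397 (37.3%) did, 134 in list 1 and 263 in list 2. There the median fold enrichment was 3.04 and the median −log10 q-value 2.21, close to their levels in Hs578T. The other 668 (62.7%) had no peak in the 4 MDA-MB-231 control lists. These 668 had a Hs578T Fn14 KO peak in 12% to 12.4% of cases over the 4 lists, and the 397 in 5.04% to 8.56%, so the ranges did not overlap. In the MDA-MB-231 Fn14 KO lists they were 3.74% to 11.2% and 4.53% to 13.1%, which overlapped. Over all 16 lists, 445 members (41.8%) had a peak in the 2 Hs578T control TWEAK lists and nowhere else.

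Members mostly lay away from gene starts. A start within 2 kb was found for 68 (6.38%), 71 (6.67%) otherwise overlapped an exon, 422 (39.6%) lay in introns and 504 (47.3%) between protein-coding genes of GENCODE release 44. The start-site share was 5.49% for the regions gained in both lines and 5.57% for those private to MDA-MB-231, both inside the 95% Wilson interval of the members, 5.07% to 8.02%. It was 25.1% for all consensus regions and 9.30% for the regions with no untreated control peak that were not gained. The rule left out regions with an untreated control peak, so the gap to all consensus regions is given as a description. Wilson intervals cover counting error over regions, which are not replicates. The median distance from a member to the nearest start was 35.5 kb, and 27.4% lay more than 100 kb away. For the regions gained in both lines these values were 35.67 kb and 25.02%, and for those private to MDA-MB-231 36.02 kb and 25.23%. The regions with no untreated control peak that were not gained had 27.05 kb and 22.02%. The median of the members was thus close to those of the other gained classes. Share of consensus regions that were members ran from 0.687% on chromosome 18 and 0.712% on chromosome 21 to 2.64% on chromosome 6 and 3.19% on chromosome 4. In that order these shares rest on 6, 4, 87 and 106 members. Regions gained in both lines were 2.41%, 3.02%, 3.09% and 2.80% of the consensus regions there.

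Distances of the members to regions with a peak before treatment, and to other gained regions, were compared with those of the other classes. The nearest region with a peak in untreated Hs578T control cells was a median of 12.1 kb away, and 482 members (45.3%) had one within 10 kb. The medians were 11.2 kb for the regions gained in both lines and 12.8 kb for those private to MDA-MB-231, with 47.2% and 44.9% within 10 kb. For the regions with no untreated control peak that were not gained, the median was 9.59 kb and the share 51.1%. Within 50 kb, 105 members (9.86%) had a region gained in both lines, against 14.1% of the regions gained in both lines and 7.43% of those not gained. Another member lay within 50 kb of 79 members (7.42%), and a member within 50 kb of 8.12% of the regions gained in both lines and 5.04% of those not gained. Grouped at that distance, the members fell into 1024 loci, of which 986 held 1 member, 35 held 2 and 3 held 3.

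The 3 loci with 3 members lay at NAMPT, ADAMTS16 and SMC2. NAMPT encodes the rate-limiting enzyme of NAD salvage. Its members (chr7:106259432-106261201, chr7:106266467-106269560 and chr7:106303960-106304702) were intronic, exonic and 18.0 kb upstream of the start, with fold enrichment of 2.82 and 2.85, 2.67 and 2.64, and 3.63 and 2.63 in the 2 TWEAK lists. None had a peak in a Fn14 KO list of either line, 1 had a peak in 1 MDA-MB-231 TWEAK list, and a region gained in both lines lay within 50 kb. A further member, 79.3 kb upstream of NAMPT and beyond the distance that joined these 3, was higher at 4.86 and 4.47, with no peak in a Fn14 KO list and one in 1 MDA-MB-231 TWEAK list. ADAMTS16, a secreted metalloprotease gene, held 3 intronic members with mean fold enrichment from 3.02 to 3.45. SMC2, a condensin subunit gene, was nearest to 3 intergenic members, from 2.96 to 3.54, of which 2 had a peak in 1 MDA-MB-231 TWEAK list. Among loci with 2 members the most base pairs were covered at DCBLD2, where both intronic members had a Hs578T KO peak, followed by BIRC3.

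At BIRC3, which encodes the ubiquitin ligase cIAP2 that acts with TRAF proteins below TNF receptors, both members were exonic. Their fold enrichment was 2.88 and 2.61 for one (chr11:102327544-102328727) and 2.52 and 2.74 for the other (chr11:102330099-102332593), and neither had a peak in any Fn14 KO list. Both also lay within 50 kb of BIRC2, the gene of cIAP1. The remaining loci with 2 members lay at CAPZA3 and PLCZ1, at CPNE5 and RAB44, and at MINK1, BET1 and CTNND2.

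Genes were linked to a member when it lay within 50 kb of a start or in the gene body, and 1145 of 20020 protein-coding genes (5.72%) had one. A region gained in both lines was so linked for 7.51%, and 168 genes had both. Among those 168 were TNIP1, TNFRSF9, CXCL3, ITGAV, NRG1, EGFR and NAMPT. Gene length was not adjusted for. Of 337 entries in 15 lists of genes, 35 had a member. The largest counts were in 4 lists, namely chemokines and inflammatory cytokines (5 of 29), NF-kB components and feedback (4 of 20), TNF ligands and receptors (4 of 25), and integrins and adhesion molecules (4 of 24). In the same order, 8, 6, 2 and 7 genes of these lists had a region gained in both lines. By share, the highest of the 15 lists was that of luminal identity genes, at 3 of 13. A member could count for more than 1 neighbouring gene.

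In the NF-kB list the genes were TNIP1, TRAF3, BIRC2 and BIRC3. TNIP1 encodes a ubiquitin-binding inhibitor of NF-kB signalling, and its member, 47.3 kb upstream, was the highest of the 4 genes at 3.60 and 4.46, with no KO peak, and it also overlapped the start of ANXA6. TRAF3 restrains the kinase NIK in the non-canonical route, and its intronic member was at 2.71 and 3.63, with a peak in 1 Hs578T KO list. No subunit gene of NF-kB had a member. In this list 6 of 20 genes had a region gained in both lines.

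Ligands and receptors of the TNF family followed. The member between TNFSF9 and CD70 (chr19:6556465-6557027), whose sequence opens the set printed above, was at 3.94 and 3.64, with no Fn14 KO peak and a peak in 1 MDA-MB-231 TWEAK list. TNFRSF1B, the gene of TNF receptor 2, had a member 9.11 kb upstream at 3.59 and 3.20, with a peak in 1 MDA-MB-231 TWEAK list. The member downstream of TNFRSF9 was at 3.57 and 3.16 and had a peak in 2 Hs578T KO lists and in 1 MDA-MB-231 TWEAK list. That gene also had a region gained in both lines.

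Among chemokine genes CCL20 was the one with a member over its start (chr2:227813430-227814139). CCL20 is the ligand of CCR6 and draws lymphocytes and dendritic cells. Its fold enrichment was 3.60 and 3.08, and no other list of the 16 had a peak there. CXCL3 and CXCL5, genes of neutrophil-attracting CXCR2 ligands, shared a member at 3.57 and 3.29 with a peak in 1 Hs578T KO list. The other was the one downstream of CX3CL1, the fractalkine gene, at 3.13 and 2.66. CCL5 was the fifth gene of the list with a member.

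Only 15 promoter windows of RefSeq genes (GRCh38.p14, 250 bases before to 50 after the start) overlapped a member, and 2 of them belonged to genes of the lists, CCL20 and MX1. These are printed because the member covers the start. Capitals mark an AP-1 match, TGANTCA, found in the MX1 window. The CCL20 window has no match to this or to the NF-kB letters GGGANNTTC. Other forms of the NF-kB site were not searched for, so the window is not shown to lack one.
CCL20, chr2:227813592-227813891, plus strand: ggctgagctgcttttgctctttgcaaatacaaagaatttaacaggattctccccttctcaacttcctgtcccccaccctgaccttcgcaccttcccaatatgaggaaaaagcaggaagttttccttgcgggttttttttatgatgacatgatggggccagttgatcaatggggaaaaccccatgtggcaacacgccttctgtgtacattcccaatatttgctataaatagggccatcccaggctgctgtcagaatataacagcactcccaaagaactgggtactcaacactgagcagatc
MX1, chr21:41425989-41426288, plus strand: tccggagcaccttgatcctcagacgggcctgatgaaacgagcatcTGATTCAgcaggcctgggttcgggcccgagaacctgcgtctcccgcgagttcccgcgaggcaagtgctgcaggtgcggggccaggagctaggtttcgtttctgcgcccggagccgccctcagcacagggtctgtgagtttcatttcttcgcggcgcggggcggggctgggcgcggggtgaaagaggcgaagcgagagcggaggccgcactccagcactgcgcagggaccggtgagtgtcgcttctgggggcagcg
An AP-1 match was present in 2 of the 15 windows and in 6.17% of 21613 promoters, and an NF-kB match in 1 of the 15 and in 4.10% of them.

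Genes of adhesion and matrix had single members. ITGA5, the fibronectin receptor subunit gene, had one 3.63 kb upstream at 3.61 and 3.45, with no peak in any of the other 14 lists. VCAM1, an adhesion ligand for leukocytes, had one 47.2 kb downstream at 3.98 and 3.36, with a peak in 1 TWEAK and 1 KO list of MDA-MB-231. ITGAV, CDH11, LOX, SPARC and COL11A1 had members between 2.67 and 3.39 in a single list. Those of ITGAV and SPARC each had a peak in 1 MDA-MB-231 TWEAK list and in 1 Fn14 KO list. Among proteases MMP1 and MMP10 shared 1 member at 2.81 and 2.58, with a peak in 1 MDA-MB-231 TWEAK list.

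In the growth factor list EGFR had an intronic member at 3.41 and 3.44 with no KO peak and a peak in 1 MDA-MB-231 TWEAK list, besides that of TGFA. NRG1 had an intronic one at 3.51 and 3.74, apart from the intergenic member described above, with no KO peak and a peak in 1 MDA-MB-231 TWEAK list. AMOTL2, a YAP regulator and target gene, had one 2.96 kb upstream at 4.81 and 4.0, the highest mean among the members linked to the named list genes within 50 kb of a start or in the gene body. The AMOTL2 member also had a peak in 1 MDA-MB-231 TWEAK list. DKK2, a WNT inhibitor gene, was at 3.64 and 3.74 and PRRX1, a mesenchymal factor gene, at 3.63 and 3.26, both without a KO peak. BMPR1B stood at 4.24 and 3.41 and SMAD6 at 2.65 and 3.14. No gene of AP-1 and small MAF factors (0 of 15) had a member, and none had a region gained in both lines.

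None of the 13 luminal identity genes had a region gained in both lines. ESR1, the oestrogen receptor gene, held 2 intronic members at 3.45 and 3.45 and at 3.25 and 3.95, and ELF3 had 1 downstream at 2.75 and 2.62. Neither gene had a member with a Hs578T KO peak. The first ESR1 member had a peak in 1 MDA-MB-231 TWEAK list and the second in 1 MDA-MB-231 KO list. The start of ESR1 had no peak in any of the 16 lists, nor did that of PGR. The starts of VIM, ZEB1, SNAI2, AXL, CAV1 and CD44, mesenchymal genes, had a peak in all 16 lists, but that of CDH2, also mesenchymal, in none, and those of the luminal genes GATA3 and ERBB3 had one in all 16.

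The 9 short motifs were searched on both strands of the central 500 bp. AP-1 letters (TGANTCA) were present in 45.2% of the members, with a 95% Wilson interval of 42.2% to 48.2%. The share was 43.3% in the regions gained in both lines, 43.7% in those private to MDA-MB-231 and 36.1% in all consensus regions. Set against consensus regions in introns or between genes alone, 44.4% of all such regions and 45.7% of such members held it. The AP-1 share of the members was thus close to that of all regions away from gene starts and exons. Around the region centre, AP-1 matches were found in 14.5% and 13.2% of the members in the 2 central bins of 100 bp. In each outermost bin 3.76% of the members had one. The central bins gave 15.2% and 12.5% for the regions gained in both lines and 10.3% and 10.2% for all consensus regions. The latter include wider regions and those at gene starts, and regions in introns or between genes were not binned alone.

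**Figure D4:**
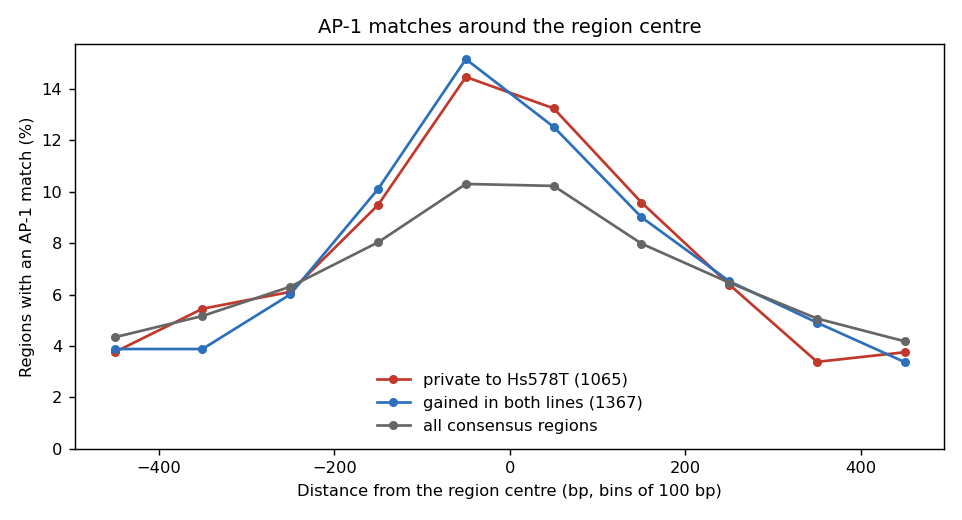
Share of regions with an AP-1 match (y axis, %) in bins of 100 bp by distance from the region centre (x axis, bp) for the members, the regions gained in both lines and all consensus regions. The members peak at 14.5% beside the centre and fall to 3.76% at both edges, close to the regions gained in both lines.

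Among the 9 motifs the share of NF-kB letters (GGGANNTTC) differed most between the members and the regions gained in both lines. They were present in 120 members (11.3%, Wilson interval 9.51% to 13.3%), in 20.7% (18.7% to 22.9%) of the 1366 regions gained in both lines on the main chromosomes, and in 13.0% (10.6% to 15.8%) of those private to MDA-MB-231. All consensus regions held them in 6.91% and those in introns or between genes in 7.06%. No test of this difference was run. The share was lower in the members than in the regions gained in both lines under each of 24 other settings. Many of those settings chose nearly the same regions.

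The NF-kB share was also taken within splits of the members, whose Wilson intervals overlapped. In 4 bands of mean fold enrichment holding 266 or 267 members each it was 8.99%, 8.27%, 13.2% and 14.7% from low to high, with an interval of 6.11% to 13.0% in the lowest band and 10.9% to 19.4% in the highest. In the regions gained in both lines the same bands gave 8.40%, 15.3%, 20.8% and 23.2%. The members were below them in the upper 3 bands and level in the lowest. The Wilson intervals separated in the highest band alone, where that of the regions gained in both lines was 20.6% to 26.1%. That band has no upper limit and does not match the 2 sets in height. Its median fold enrichment was 3.77 in the members and 4.38 in the regions gained in both lines. Members with a peak in 1 MDA-MB-231 TWEAK list held NF-kB letters in 14.4% of cases (11.2% to 18.1%) and those with none in 9.43% (7.44% to 11.9%). Members without a Hs578T KO peak held them in 12.5% (10.4% to 15.0%) and those with one in 7.0% (4.41% to 10.9%). For AP-1 the same splits gave 45.8% and 44.8%, then 45.7% and 43.2%. Both motifs were present in 53 members.

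**Figure D5:**
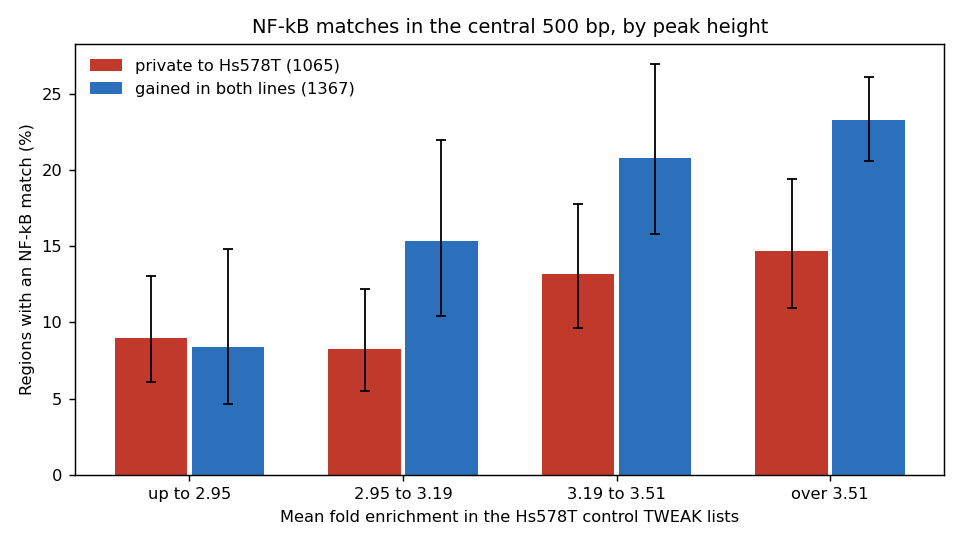
Share of regions with an NF-kB match in the central 500 bp (y axis, %) in 4 bands of mean fold enrichment in the Hs578T control TWEAK lists (x axis), for the members and the regions gained in both lines, with 95% Wilson intervals over regions. The lowest and highest bands are at 8.99% and 14.7% for the members and at 8.40% and 23.2% for the regions gained in both lines. The highest band has no upper limit, with a median fold enrichment of 3.77 for the members and 4.38 for the regions gained in both lines.

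The other motifs differed less. TEAD letters (GGAATG) were present in 28.5% of the members, 32.6% of the regions gained in both lines and 29.1% of all consensus regions. RUNX letters (TGTGGT) were in 34.3% of the members and 32.4% of all, C/EBP letters (TTGCNNAA) in 26.0% and 22.5%, forkhead letters (TGTTTAC) in 10.6% and 8.93%, and the E-box (CAGGTG) in 31.4% and 32.2%. ETS letters (CCGGAA) were in 5.63% of the members and 10.9% of all consensus regions, and the CRE (TGACGTCA) in 4 members. None of the 9 was found in 108 members. The median GC content of the window was 42.6% in the members and 42.8% in the regions gained in both lines.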

How the data were processed

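H3K27ac ChIP-seq peak lists of Hs578T and MDA-MB-231 cells were analysed, 2 for each of 8 groups mapped from the sample titles. Per the study's methods the authors trimmed reads with Trimmomatic, aligned them with Bowtie2 to hg38, called peaks with MACS2 with input subtracted, and removed blacklisted intervals. Versions were not given in the sources used here. The deposited lists are in MACS2's broad-peak layout and hold, per peak, a score, a fold enrichment (a ratio over background), a −log10 p-value and a −log10 q-value. The score column repeats the −log10 q-value on a larger scale and was not used. Peaks were called for each list on its own, so a region near the threshold can be present in 1 list and absent from another.

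All peaks were merged at 1 bp with Python 3.11.15 (numpy 2.4.6, pandas 2.3.3, scipy 1.17.1), giving 64545 regions, of which the 55219 with a peak in 2 or more lists were kept. A region's fold enrichment in a list is that of its highest peak. Positions came from GENCODE release 44, whose hg38 chromosomes contained every peak. A start site was counted within 2 kb and a gene link within 50 kb, and motifs were searched in the central 500 bp. The calls were tested on simulated lists. No p-value was computed, since the members were chosen on these lists and groups hold 2 lists. Presence is given per list, with the SD over 2 lists. Per the study's methods, ChIP-seq in cell lines had 2 or more biological replicates.

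The members and the lists of genes and motifs were chosen with earlier results of these data known. Named were the 10 members with the highest mean fold enrichment, the 10 loci with most members, and up to 4 genes per list with a member, ranked by member count and height, with the central 200 bp printed for at most 6 members. Some items that this rule picks are not reported here. Alternatives changed the peak threshold, list size, merging distance, lists that define regions, treatment of MDA-MB-231 lists, start distance and motif window, and left out each list in turn. The NF-kB share was added to them after seeing the data.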

Additional observations from a re-analysis of the deposited data

How the results depend on the processing

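No paired analysis was possible because the results come from no test. Lists differed in peak number and peaks of members lay near the calling threshold, so which regions are members depends on it. With peaks of a −log10 q-value of 8.38 or more, the median over all lists, 477 regions met the rule, of which 2 overlapped a member. Their share with a peak was 6.08% in Hs578T Fn14 KO and 2.25% in MDA-MB-231 Fn14 KO lists, and 8.39% lay near a start site. With a −log10 q-value of at least 2 the Hs578T KO share was 9.42%. With each list cut to 39544 peaks there were 746 members, 369 of them (49.5%) overlapping a main member, the Hs578T KO share was 11.7% and the AP-1 share 50%. Requiring no peak in any of the 4 MDA-MB-231 control lists left 668 members, with 12.2% in Hs578T KO lists and an NF-kB share of 9.43%. The start-site share was 3.94% within 1 kb and 13.7% within 5 kb. In windows of 200 bp and 1000 bp the AP-1 share was 25.6% and 58.2% and the NF-kB share 5.82% and 18.5%. Leaving out each list in turn gave 800 to 1387 members, 10.1% to 21.7% in Hs578T KO lists, 4.85% to 11.3% in MDA-MB-231 KO lists, 6.13% to 7.67% near a start, 42.0% to 46.6% with AP-1 and 9.47% to 11.4% with NF-kB. The MDA-MB-231 KO share was 10.8% and 11.3% without the first and the second TWEAK control list of Hs578T. Against the regions gained in both lines, the members stayed higher in Hs578T KO and lower in MDA-MB-231 KO lists in all 22 settings, and lower in NF-kB share in all 24. The start-site and AP-1 shares were above those regions in 21 and 22 of 24 settings and below in 3 and 2. Many of these settings chose nearly the same members. Merging at 500 bp, or from the 8 control lists alone, moved no value beyond its spread. The cause of these shifts was not tested.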

Other observations

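Of the 26 members with a peak in all 4 Hs578T Fn14 KO lists, the one nearest FSIP2, a sperm flagellum protein gene (chr2:185406752-185409006), stood at a fold enrichment of 2.65 and 3.31 in the control TWEAK lists and had no peak in untreated control cells. In Fn14 KO cells it was at 11.7 and 11.0 untreated and at 13.1 and 12.6 with TWEAK, above both control values in all 4 lists. The other 25 lay between 2.56 and 4.68 in the KO lists. It was picked out after its values were seen. In MDA-MB-231 Fn14 KO cells 5 members had a peak in all 4 lists, nearest SLC35F3, SCCPDH, ANKRD30A, SPTBN1 and CLK4, at 2.88 to 4.21.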
